A study of Drosophila melanogaster with 15 samples.

Results

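Metallothioneins and the iron storage and transport proteins of the fly head were followed through exposure to amphetamine (AMPH) in flies with and without a working dopamine transporter (DAT). The genes were MtnA, MtnB, MtnC, MtnD, Fer1HCH, Fer2LCH and Tsf1. They were chosen by name, with earlier results of these data known. Of these 7 genes, 6 had a row in the expression table, with 12 transcripts among the 18960 transcripts of 11257 genes. MtnC was not analysed here.

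Metallothioneins are small, cysteine-rich proteins that bind copper, zinc and cadmium, and in Drosophila their genes are switched on by the metal-responsive transcription factor MTF-1. Ferritin stores iron inside a shell of heavy and light chains. The heavy chain, encoded by Fer1HCH, carries the centre that oxidises iron, and the light chain, encoded by Fer2LCH, helps to form the iron core. Insect ferritin is largely a secreted protein. Transferrin 1, encoded by Tsf1, is an iron-binding protein of the haemolymph that is made in large amounts by the fat body and moves iron between tissues.

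All flies were males of the w1118 background, aged 7 days when they were moved to sugar-agar food with 10 mM AMPH or with water as vehicle for 48 h. DAT mutant flies carried the dDATfmn allele, a transposon insertion in an intron of the transporter gene, and had been backcrossed to the isogenic w1118 strain that served as WT. Polyadenylated RNA of single animals was sequenced, with 3 libraries of DAT mutant AMPH, 4 of DAT mutant vehicle, 4 of WT AMPH and 4 of WT vehicle. The values were RPKM (reads per kilobase of transcript and scaled to library size), which allow levels of different genes to be set beside each other.

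The 15 libraries held 11.1 to 77.7 M reads, if the smallest step between low values is 1 read. The median was 41.9 M in DAT mutant AMPH and 11.6 M in DAT mutant vehicle, so that depth and treatment go together there. It was 54.0 M in WT AMPH and 53.9 M in WT vehicle. The tests used 13 libraries and left out DAT mutant vehicle replicate 2 and WT vehicle replicate 1, since these 13 give the group means that the study lists, and the study states no reason. DAT mutant vehicle replicate 2 stood apart from its group, with a Spearman correlation of at most 0.87 with another library of the group, while the closest library of the same group was at 0.975 or above for each of the other 14 libraries. Its summed RPKM of 4 neuronal genes (elav, nSyb, brp and Syt1) was 324, against 779 to 848 in the other DAT mutant vehicle libraries. The tissue is labelled brain, but 5 photoreceptor genes together were at 22935 to 42973 RPKM over all libraries, so that RNA of the compound eye was present. Values of both left-out libraries are given below beside those of the 6 genes. In whole heads, fewer cells of a type and less RNA per cell cannot be told apart.

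Tsf1 (FBgn0022355, transcript FBtr0074559, chromosome X, 18281965 to 18284377, plus strand, in the coordinates of the dm3 genome build) fell under AMPH in both strains. In DAT mutant AMPH heads it was at 224, 178 and 207 RPKM, against 569, 571 and 855 RPKM in DAT mutant vehicle replicates 1, 3 and 4 and 451 RPKM in the unused replicate 2. In WT AMPH heads it was at 197, 193, 177 and 129 RPKM, against 472, 448 and 514 RPKM in WT vehicle replicates 2, 3 and 4 and 308 RPKM in the unused replicate 1. Every AMPH library lay below every vehicle library of both strains, the unused libraries included.

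The log2 fold change of Tsf1, on the scale of log2(RPKM + 1), was -1.69 in the DAT mutant (SE 0.18, adjusted p = 0.000885) and -1.47 in WT (SE 0.17, adjusted p = 0.0018), from limma with Benjamini-Hochberg adjustment over all transcripts. These are levels of 0.311 and 0.361 times those on vehicle. With all 15 libraries the values were -1.55 in the DAT mutant (adjusted p = 0.032) and -1.31 in WT (adjusted p = 0.0024). A transcript is counted as changed at an adjusted p under 0.1. By this rule 22.1% of transcripts changed under AMPH in the DAT mutant, and 15.4% fell. In WT 22.0% changed, and 14.8% fell.

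Tsf1 is a fat body product, and the cell type markers that were called under AMPH fell as it did, all but the blood cell gene srp. The ferritin transcripts described next rose. Of 4 fat body genes listed, 2 had a row, and neither was at 0 in any library. apolpp, which encodes the lipid-carrying apolipophorin, fell by 2.90 on the log2 scale in the DAT mutant (SE 0.28, adjusted p = 0.00069) and by 2.68 in WT (SE 0.28, adjusted p = 0.0013). Lsp2 is a larval serum protein that adult fat body also makes. It was at 0.425, 0.467 and 0.737 RPKM in DAT mutant AMPH heads, against 8.88, 19.9 and 6.56 RPKM in DAT mutant vehicle replicates 1, 3 and 4. These are given as levels only, since Lsp2 passed the filter on low values there only because of the vehicle heads. In WT its log2 fold change was -0.77 (SE 0.62, limma adjusted p = 0.446). The sum of both genes was 11.1 to 25.5 RPKM in DAT mutant AMPH heads, against 142 to 174 RPKM in DAT mutant vehicle heads and 110 RPKM in the unused replicate 2. In WT AMPH heads it was 9.73 to 24.1 RPKM, against 62.7 to 137 RPKM in WT vehicle heads. The unused WT vehicle replicate 1 had the fat body sum of an AMPH head, 9.98 RPKM, with a Tsf1 level of 308 RPKM that was above that of all 7 AMPH heads. Of 4 muscle genes with a row (Mhc, Mlc2, Act88F and up), Mhc and Mlc2 fell in each strain and Act88F fell in WT. In the DAT mutant Act88F passed the filter only because of the vehicle heads. It was at 0.73, 1.17 and 0.744 RPKM in AMPH heads there, against 5.07, 1.93 and 2.98 RPKM in vehicle replicates 1, 3 and 4. The sum of the 4 was 287 to 340 RPKM in DAT mutant AMPH heads, against 393 to 502 RPKM in DAT mutant vehicle heads and 279 RPKM in the unused replicate 2, and 306 to 372 RPKM in WT AMPH heads, against 578 to 824 RPKM in WT vehicle heads.

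Of 4 glial genes, repo, Eaat1 and Gs2 fell in the DAT mutant and repo in WT. The sum of the 4 was 357 to 384 RPKM in DAT mutant AMPH heads, against 475 to 672 RPKM in DAT mutant vehicle heads. The unused DAT mutant vehicle replicate 2 was at 365 RPKM, within the range of the AMPH heads. In WT AMPH heads the sum was 465 to 533 RPKM, against 583 to 735 RPKM in WT vehicle heads. Of 4 neuronal genes nSyb fell in the DAT mutant, and elav and brp in WT. Of 5 photoreceptor genes norpA and inaD fell in the DAT mutant, and inaD in WT. Of 4 blood cell genes Pxn fell in both strains and srp rose in the DAT mutant. The part of these shifts in the changes of Tsf1 and of the ferritin genes was not tested.

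**Figure D1:**
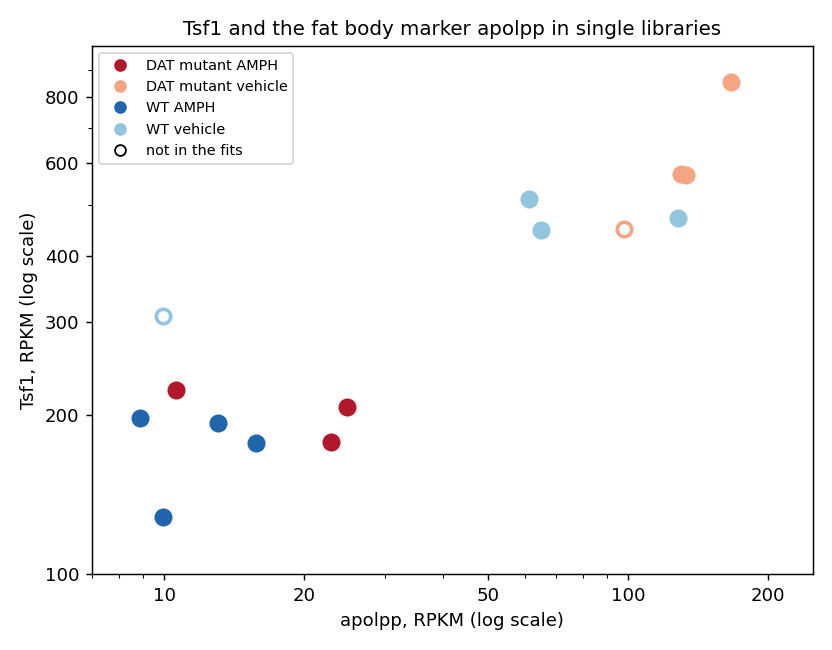
Tsf1 RPKM (vertical, log scale) against apolpp RPKM (horizontal, log scale), with 1 point per library, coloured by group, and open points for the 2 libraries not in the fits. AMPH libraries lie at the lower left and vehicle libraries at the upper right, except WT vehicle replicate 1, which has the apolpp level of AMPH libraries and a Tsf1 level of 308 RPKM.

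Both ferritin chains rose under AMPH in both strains. Fer1HCH (FBgn0015222, lead transcript FBtr0085632, chromosome 3R, 26211292 to 26213846, minus strand) was at 607, 519 and 568 RPKM in DAT mutant AMPH heads, against 373, 305 and 364 RPKM in DAT mutant vehicle replicates 1, 3 and 4. The lead transcript of a gene is the one with the highest mean RPKM. WT AMPH heads held 455, 573, 587 and 429 RPKM, against 329, 325 and 308 RPKM in WT vehicle replicates 2, 3 and 4 and 289 RPKM in the unused replicate 1. In neither strain did the AMPH and vehicle libraries in the fits overlap. DAT mutant vehicle replicate 2, which was not used, had 526 RPKM and lay within the range of the AMPH heads.

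The log2 fold change of Fer1HCH was 0.70 in the DAT mutant (SE 0.12, limma adjusted p = 0.0083) and 0.66 in WT (SE 0.15, adjusted p = 0.026). This call held in each fit that left out 1 library, with a highest adjusted p of 0.042 in the DAT mutant and 0.093 in WT. Over all 15 libraries its log2 fold change was 0.55 in the DAT mutant, without a call (adjusted p = 0.555), and 0.69 in WT (adjusted p = 0.0072). In that DAT mutant comparison with the unused replicate 2 added, 1.47% of all transcripts were called, against 29.6% in the WT comparison with all 15 libraries.

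Fer2LCH (FBgn0015221, lead transcript FBtr0085624, chromosome 3R, 26214861 to 26216306, plus strand) was at 841, 642 and 676 RPKM in DAT mutant AMPH heads, against 528, 427 and 499 RPKM in DAT mutant vehicle replicates 1, 3 and 4 and 465 RPKM in the unused replicate 2. WT AMPH heads held 541, 738, 594 and 444 RPKM, against 361, 407 and 412 RPKM in WT vehicle replicates 2, 3 and 4 and 374 RPKM in the unused replicate 1. All 15 libraries included, the AMPH and vehicle heads of a strain did not overlap.

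The log2 fold change of Fer2LCH was 0.56 in the DAT mutant (SE 0.14, limma adjusted p = 0.034) and 0.54 in WT (SE 0.18, adjusted p = 0.088). Over all 15 libraries it was 0.58 in the DAT mutant (adjusted p = 0.345) and 0.55 in WT (adjusted p = 0.035). The WT call was near the threshold, and it was lost when one transcript per gene was tested (limma adjusted p = 0.1105). It was lost without WT AMPH replicate 2 (adjusted p = 0.150), WT AMPH replicate 3 (0.164), WT vehicle replicate 2 (0.241), WT vehicle replicate 3 (0.184) or WT vehicle replicate 4 (0.176), where the log2 fold change stayed between 0.41 and 0.57. In the DAT mutant it held in each of the 6 fits that left out 1 library, with a highest adjusted p of 0.096.

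The ferritin genes are neighbours on 3R that are read away from each other, with 1014 bases between the lead transcripts. A longer Fer2LCH transcript, FBtr0085622, overlaps the lead transcript of Fer1HCH by 293 bases, and how reads were shared between overlapping transcripts is not given in the sources used here. The table lists 5 transcripts of Fer1HCH and 3 of Fer2LCH. Their values moved as one: over the 15 libraries the other Fer1HCH transcripts stayed at 0.863 to 0.970 times the lead transcript, and the other Fer2LCH transcripts at 0.755 to 0.790 times. They are therefore not separate measurements of the response.

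A ratio of the lead transcripts was taken to describe both chains. The ratio of Fer1HCH to Fer2LCH RPKM averaged 0.790 ± 0.061 in DAT mutant AMPH heads (SD, n = 3) and 0.716 ± 0.011 in DAT mutant vehicle heads (n = 3). It averaged 0.893 ± 0.101 in WT AMPH heads (n = 4) and 0.819 ± 0.084 in WT vehicle heads (n = 3). The single libraries of the AMPH and vehicle groups overlapped in both strains. Of all 15 libraries, only the unused DAT mutant vehicle replicate 2 had more of the heavy chain lead transcript than of the light chain one, at a ratio of 1.13. This depends on the transcripts chosen. In WT AMPH replicate 3, the Fer1HCH lead transcript was at 587 RPKM and the Fer2LCH transcript FBtr0085623 at 451 RPKM.

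**Figure D2:**
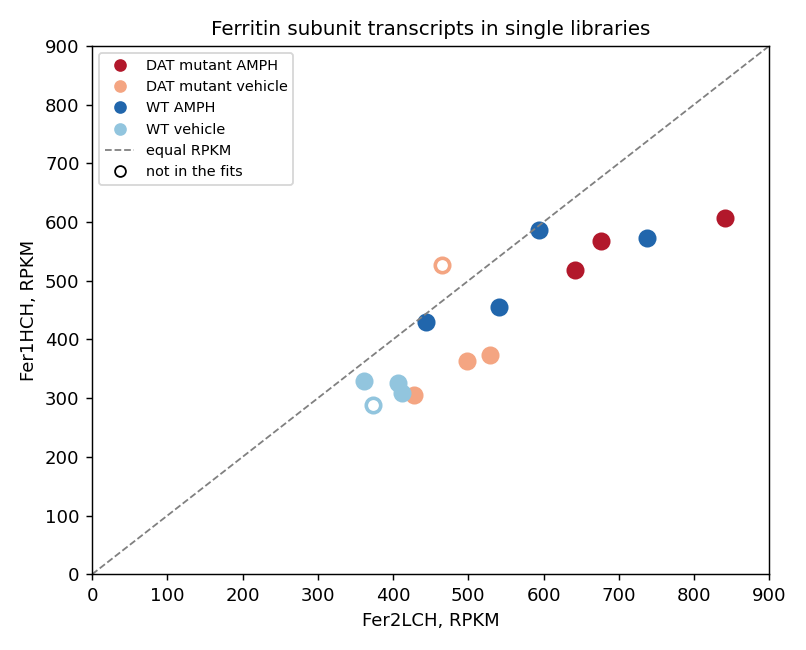
Fer1HCH RPKM (vertical) against Fer2LCH RPKM (horizontal) of the lead transcripts, with 1 point per library, coloured by group, and open points for the 2 libraries not in the fits. The dashed line marks equal RPKM, and only the open point of DAT mutant vehicle replicate 2, at a ratio of 1.13, lies above it.

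Among the metallothioneins, MtnA (FBgn0002868, transcript FBtr0082158, chromosome 3R, 5609487 to 5610093, minus strand) was the most abundant by a wide margin and in most libraries exceeded the ferritin transcripts. In DAT mutant AMPH heads it was at 1089, 1072 and 1178 RPKM, against 1303, 862 and 1106 RPKM in DAT mutant vehicle replicates 1, 3 and 4. In WT AMPH heads it was at 1363, 738, 1010 and 1023 RPKM, against 640, 598 and 824 RPKM in WT vehicle replicates 2, 3 and 4 and 380 RPKM in the unused replicate 1. The AMPH and vehicle heads overlapped in both strains, in WT through AMPH replicate 2 alone.

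The log2 fold change of MtnA under AMPH was 0.05 in the DAT mutant (95% interval -0.32 to 0.42, limma adjusted p = 0.867) and 0.57 in WT (interval 0.05 to 1.09, adjusted p = 0.133). Neither passed the test. With all 15 libraries, and the low WT vehicle replicate 1 among them, the WT value was 0.78 and passed (adjusted p = 0.063), and the DAT mutant value was -0.51 (adjusted p = 0.933). Without WT AMPH replicate 2 the WT value was 0.72 and also passed (adjusted p = 0.068). Without DAT mutant vehicle replicate 3 the DAT mutant value was -0.11 (adjusted p = 0.650).

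MtnB (FBgn0002869, transcript FBtr0083890, chromosome 3R, 16328960 to 16329321, minus strand) was near the lower limit of what these libraries measure. It was at 1.59, 2.55 and 1.75 RPKM in DAT mutant AMPH heads, against 0.212, 0 and 1.2 RPKM in DAT mutant vehicle replicates 1, 3 and 4. WT AMPH heads had 1.33, 0.879, 1.55 and 1.06 RPKM, against 0.469, 0.641 and 0 RPKM in WT vehicle replicates 2, 3 and 4 and 0.470 RPKM in the unused replicate 1. Outside the unused DAT mutant vehicle replicate 2, no library held more than about 24.4 reads of it, on the length in a later annotation and if 1 step is 1 read.

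The log2 fold change of MtnB was 1.08 in the DAT mutant (SE 0.29, limma adjusted p = 0.039) and 0.71 in WT (SE 0.21, adjusted p = 0.060). MtnB passed the filter on low values, at least 1 RPKM in 3 libraries, only because of the AMPH heads, so that its calls are no support for a rise of the family. The size of the fold change is set by the pseudocount, since with 0.1 in place of 1 it was 2.56 in the DAT mutant (adjusted p = 0.070) and 1.88 in WT (adjusted p = 0.105). The DAT mutant call was lost without DAT mutant AMPH replicate 2 (adjusted p = 0.134), DAT mutant AMPH replicate 3 (0.123) or DAT mutant vehicle replicate 1 (0.111), and with all 15 libraries (log2 fold change 0.13, adjusted p = 0.988). The WT call was lost without WT vehicle replicate 2 (adjusted p = 0.116) or WT vehicle replicate 4 (0.159, log2 fold change 0.50). MtnB was below the filter in WT when all 15 libraries were used.

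MtnD (FBgn0053192, transcript FBtr0083902, 31405 bases from MtnB on 3R, from 16360727 to 16361007, plus strand) was at 5.0, 2.86 and 3.63 RPKM in DAT mutant AMPH heads, against 2.77, 2.49 and 2.09 RPKM in DAT mutant vehicle replicates 1, 3 and 4. The WT AMPH heads had 3.47, 0.528, 9.76 and 1.71 RPKM, against 1.05, 0 and 1.26 RPKM in WT vehicle replicates 2, 3 and 4 and 1.8 RPKM in the unused replicate 1. The groups in the fits were separate in the DAT mutant and overlapped in WT, where WT AMPH replicate 3 was well above the others.

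The log2 fold change of MtnD was 0.47 in the DAT mutant (interval 0.06 to 0.87, limma adjusted p = 0.118) and 1.17 in WT (interval -0.21 to 2.55, adjusted p = 0.232), and neither passed the test. Without DAT mutant AMPH replicate 2 the DAT mutant value passed at 0.62 (adjusted p = 0.080), and without WT AMPH replicate 2 the WT value passed at 1.60 (adjusted p = 0.0999). Without WT AMPH replicate 3 the WT value was 0.66. Over the 13 libraries MtnD passed the filter in WT only because of the AMPH heads, so that its WT values are no support for a rise. At a pseudocount of 0.1 the WT value was 2.22 (adjusted p = 0.220).

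The 3 metallothioneins were all at their highest or close to it in the unused DAT mutant vehicle replicate 2. MtnA was at 5022 RPKM there, 4.61 times the mean of the other DAT mutant vehicle libraries and above the 1363 RPKM that was the highest value elsewhere. MtnB was at 18.3 RPKM, against at most 2.55 RPKM in the other 14 libraries. MtnD was at 8.14 RPKM, 3.32 times the mean of the rest of its group. Over 7970 genes the median difference between this library and the other DAT mutant vehicle libraries was -0.56 on the log2 scale and the median size of the difference was 0.85. The part in these levels of whatever sets this library apart was not tested.

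**Figure D3:**
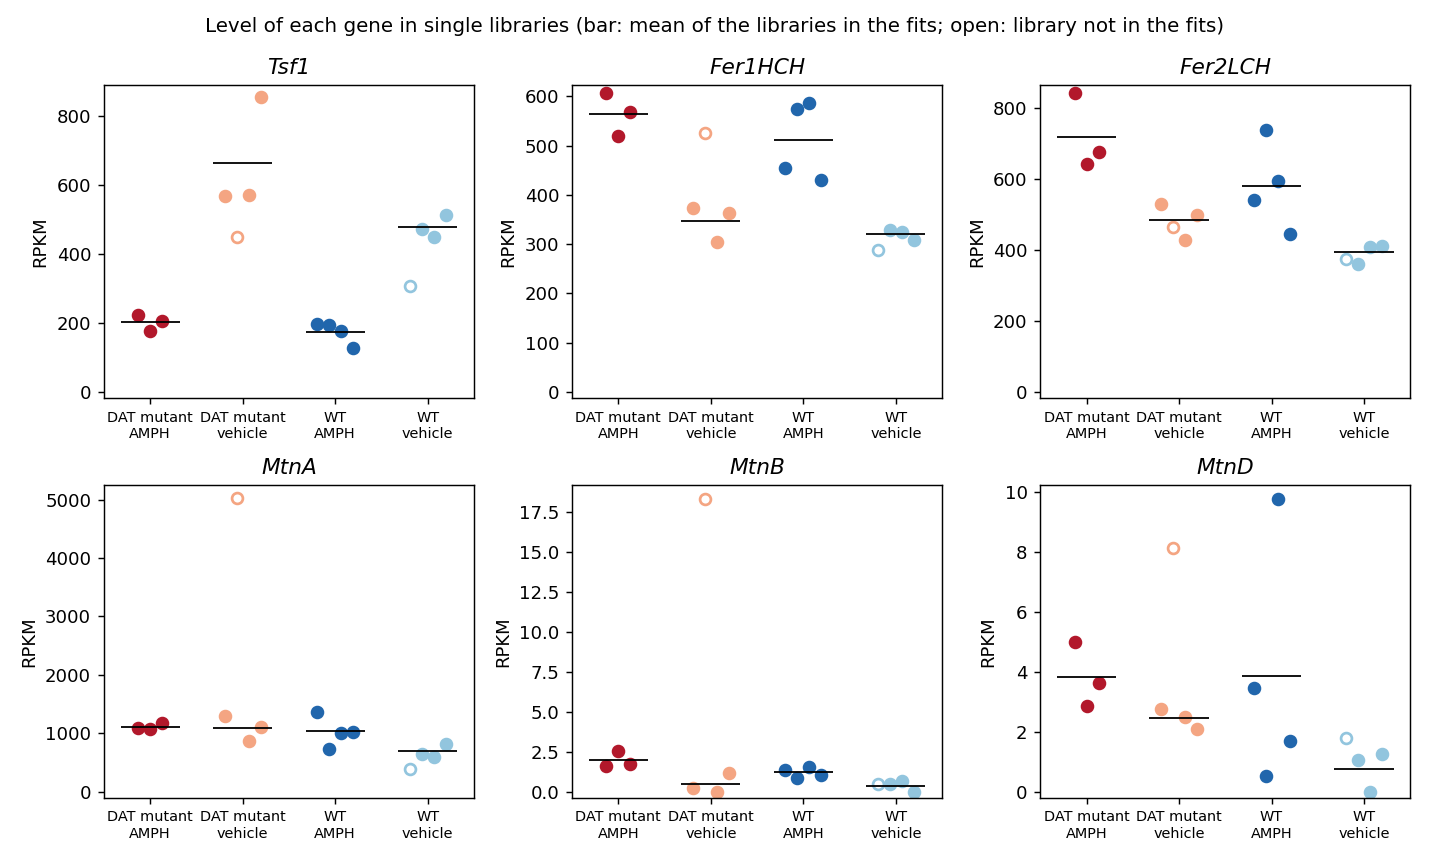
RPKM of the lead transcript of each gene (vertical, linear scale from 0) in DAT mutant AMPH, DAT mutant vehicle, WT AMPH and WT vehicle libraries, with 1 point per library, bars for the mean of the libraries in the fits and open points for the 2 libraries left out. Tsf1 is lower and both ferritin chains are higher in AMPH libraries of each strain, and the open DAT mutant vehicle point tops the MtnA panel at 5022 RPKM and the MtnB panel at 18.3 RPKM.

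MtnB was left aside, since the filter admitted it through the AMPH heads. Of the 5 others 3 passed the test under AMPH in each strain, where 22.1% of all transcripts did (DAT mutant) and 22.0% (WT). The genes were chosen with earlier results of these data known, so that these shares are a description and no test of the set. MtnD, which did not pass, was admitted in WT through the AMPH heads alone. With one transcript per gene, 1903 of 9952 were called in the DAT mutant and 1776 of 10032 in WT. The WT call of Fer2LCH was then lost (limma adjusted p = 0.1105). Tsf1 fell, and Fer1HCH and Fer2LCH rose, where 6.71% of all transcripts rose in the DAT mutant and 7.20% in WT. The median log2 fold change of all transcripts was -0.08 in the DAT mutant and -0.07 in WT. Of all calls, 30.4% were rises in the DAT mutant and 32.7% in WT. After median centring of each library these shares were 50.6% and 50.9%, and after quantile normalization 48.2% and 48.8%. The directions of the 6 genes were the same under both scalings, and MtnD then passed the test in the DAT mutant (adjusted p = 0.071 and 0.096).

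The same genes were compared between the strains on vehicle. The DAT mutant vehicle heads had more MtnA than the WT vehicle heads (1090 ± 221 against 688 ± 120 RPKM, SD, n = 3 each) and the groups did not overlap, but the log2 fold change of 0.66 (interval 0.22 to 1.1, limma adjusted p = 0.102) was just outside the threshold. MtnD was at 2.77, 2.49 and 2.09 RPKM in DAT mutant vehicle heads, against 1.05, 0 and 1.26 RPKM in WT vehicle heads. It passed the filter on low values only because of the DAT mutant heads, so that its test is no support for a difference. Its log2 fold change of 1.05 became 2.23 at a pseudocount of 0.1. Of the 5 genes tested none was called, where 8.45% of all transcripts were. MtnD left aside, MtnA, Tsf1 and Fer2LCH were at an unadjusted p under 0.05 and Fer1HCH was not, where 19.3% of all transcripts were. Tsf1 was at 0.45 (adjusted p = 0.206), Fer2LCH at 0.30 (0.235) and Fer1HCH at 0.11 (0.664).

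MtnA passed under median centring (limma adjusted p = 0.075) and under quantile normalization (0.044). It also passed without WT vehicle replicate 4 (0.078) or without DAT mutant vehicle replicate 3 (0.055). It did not pass without WT vehicle replicate 2 (0.240) or 3 (0.281), or without DAT mutant vehicle replicate 1 (0.240) or 4 (0.264). With the replicate block its log2 fold change was 0.48 without a call (adjusted p = 0.329). Over all 15 libraries the MtnA value was 1.42 (adjusted p = 0.391) and 1.08% of transcripts were called, and none of the genes was. This comparison shares its vehicle libraries with the AMPH comparisons, so that the level of MtnA in WT vehicle heads enters both the WT response and the difference between the strains.

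On AMPH, none of the 6 genes was called between the strains, where 5.54% of all transcripts were. MtnB had a log2 fold change of 0.42 (interval 0.05 to 0.80, limma adjusted p = 0.230) without overlap of the groups. It was the only one of the 6 at an unadjusted p under 0.05, where 17.4% of all transcripts were. MtnA averaged 1113 ± 57 RPKM in DAT mutant AMPH heads (SD, n = 3) and 1034 ± 256 RPKM in WT AMPH heads (n = 4), a log2 fold change of 0.14 (interval -0.34 to 0.62). Tsf1 was at 0.23 (interval -0.16 to 0.63), Fer2LCH at 0.33 (interval -0.13 to 0.78), Fer1HCH at 0.15 (interval -0.22 to 0.52) and MtnD at 0.34 (interval -0.93 to 1.61).

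Whether the AMPH response itself differed between the strains was tested as an interaction, the response in the DAT mutant minus that in WT. None of the 6 genes was called, 0.145% of all transcripts were, and none of the 6 was at an unadjusted p under 0.05, where 5.21% of all transcripts were. The difference was 0.04 for Fer1HCH (interval -0.38 to 0.47), 0.03 for Fer2LCH (interval -0.49 to 0.55) and -0.22 for Tsf1 (interval -0.78 to 0.34). MtnA, with -0.52 (interval -1.16 to 0.12), MtnB, with 0.38 (interval -0.44 to 1.2), and MtnD, with -0.71 (interval -2.30 to 0.89), were less closely determined. With all 15 libraries 0.0445% of transcripts were called and the MtnA difference was -1.28 (interval -2.61 to 0.04). These intervals leave room for differences between the strains that the number of heads does not resolve.

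Other genes of metal handling were taken from lists of 41 genes, of which 33 had a row. MTF-1, the activator of the metallothionein genes, averaged 10.7 RPKM in DAT mutant AMPH heads and 10.9 RPKM in DAT mutant vehicle heads, and 11.6 RPKM in WT AMPH heads and 11.3 RPKM in WT vehicle heads. Its log2 fold change under AMPH was -0.03 in the DAT mutant (SE 0.10) and 0.04 in WT (SE 0.10). Of 7 copper handling genes tested (transporters, chaperones and copper enzymes), none was called in any of the 5 comparisons.

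Under AMPH, 2 genes of the lists rose and 5 fell in the DAT mutant, and 2 rose and 2 fell in WT, of 31 tested in each strain. These are 7 and 4 of 31, where 22.1% of all transcripts changed in the DAT mutant and 22.0% in WT. Nothing particular to the lists is read from these counts. Ho, the heme oxygenase that frees iron from heme, rose by 0.62 on the log2 scale in the DAT mutant (SE 0.12, limma adjusted p = 0.011) and by 0.39 in WT (SE 0.10, adjusted p = 0.037). FeCH, the ferrochelatase that inserts iron into heme, rose by 0.37 in the DAT mutant (SE 0.13, adjusted p = 0.096) and by 0.48 in WT (SE 0.15, adjusted p = 0.067). Tsf3, a further transferrin gene, fell by 0.41 in the DAT mutant (SE 0.12, adjusted p = 0.052) and by 0.58 in WT (SE 0.15, adjusted p = 0.037). Tsf2, the transferrin of septate junctions, had log2 fold changes of -0.22 in the DAT mutant (adjusted p = 0.151) and 0.01 in WT (adjusted p = 0.956).

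Among zinc transporters the largest change under AMPH was in Zip89B, a member of the zinc importer family. It was at 2.94, 3.11 and 2.99 RPKM in DAT mutant AMPH heads, against 7.30, 10.9 and 9.64 RPKM in DAT mutant vehicle replicates 1, 3 and 4 (and 3.57 RPKM, close to the AMPH heads, in the unused replicate 2), a fall of 1.34 on the log2 scale (limma adjusted p = 0.000948). Its WT AMPH levels were 4.03, 3.60, 2.44 and 2.13 RPKM, against 6.55, 9.92 and 6.84 RPKM in WT vehicle replicates 2, 3 and 4 (and 12.5 RPKM in the unused replicate 1), a fall of 1.12 (adjusted p = 0.011). Zip48C, Zip71B and ZnT63C fell in the DAT mutant by 0.48, 0.38 and 0.30 (adjusted p = 0.033, 0.092 and 0.095). Their WT values were 0.05, -0.41 and -0.18 without a call, and the difference between the strains was not called for any gene of the lists (of 32 tested).

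**Figure D4:**
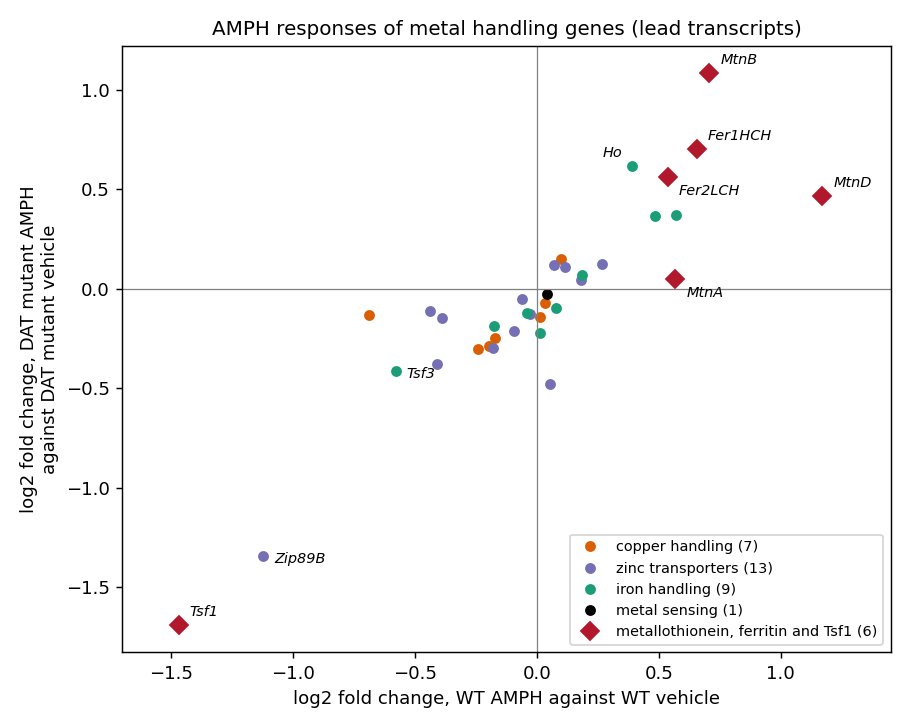
Log2 fold change under AMPH in the DAT mutant (vertical) against that in WT (horizontal) for metal handling genes with a value in both strains (circles, coloured by list) and for the 6 genes described here (diamonds). Tsf1 and Zip89B lie at the lower left, both ferritin chains and Ho at the upper right, and MtnA near 0 on the vertical axis.

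Between the strains on vehicle, 3 of 32 list genes were called, where 8.45% of all transcripts were, and 3 of 32 on AMPH, where 5.54% were. On vehicle Zip48C was higher in the DAT mutant by 0.47 on the log2 scale (SE 0.11, limma adjusted p = 0.052), and on AMPH Tsf2 was lower, at -0.44 (SE 0.10, adjusted p = 0.052). The other calls, of Mco1 and ZnT33D, are given as levels only, since each of these genes passed the filter on low values through 1 strain alone. Mco1, a multicopper oxidase that acts in iron metabolism, was at 1.74, 2.67 and 1.96 RPKM in DAT mutant vehicle replicates 1, 3 and 4, against 0.778, 0.613 and 0.14 RPKM in WT vehicle replicates 2, 3 and 4. The left-out libraries ran the other way, with 0.707 RPKM in DAT mutant vehicle replicate 2 and 1.42 RPKM in WT vehicle replicate 1. On AMPH it was at 1.31, 1.63 and 1.25 RPKM in DAT mutant heads, against 0.495, 0.315, 0.447 and 0.343 RPKM in WT heads. ZnT33D, of the zinc exporter family, was at 0.037 to 0.923 RPKM over the 7 DAT mutant libraries, against 3.96 to 6.37 RPKM over the 8 WT libraries, the left-out ones included.

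Across the 13 libraries the ferritin chains varied together, with a Pearson r of 0.91 between their log2 values, and both varied against Tsf1, with r of -0.79 for Fer1HCH and -0.54 for Fer2LCH. The r of MtnA was 0.72 with MtnD, 0.41 with MtnB, 0.42 with Fer1HCH and -0.25 with Tsf1. The libraries share their treatment group, strain and depth, so that these values describe the 13 libraries and carry no test.

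Of 7970 genes averaging at least 5 RPKM, those most like Tsf1 over the 13 libraries were CG6461 (Ggt-1 in a later annotation; r = 0.985), vvl (0.978), which encodes a POU domain transcription factor, and CG6126 (0.970). Those most like Fer1HCH were CG6188 (Gnmt; 0.971), GstD1 (0.970), a glutathione S-transferase, and PHGPx (0.969), a glutathione peroxidase homologue. Those most like MtnA were CG5621 (Grik; 0.870), CG10133 (JMJD7; 0.853) and CG9609 (0.841). With all 15 libraries the r of the genes named for Tsf1 was 0.782 to 0.970 and of those named for Fer1HCH 0.836 to 0.959. That of the genes named for MtnA was -0.058, 0.592 and 0.033. With the left-out libraries added, the likeness of CG5621 and CG9609 to MtnA was thus lost and that of CG10133 was weaker. The parts of the left-out libraries in this were not separated.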

How the data were processed

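Reads were mapped to dm3 with tmap by the authors, who deposited RPKM values per transcript, which are not read counts. Files of 15 libraries were read, and each equalled its column of the series table. The 13 libraries in the fits are those whose group means of rounded log2 values match a table of the study within 0.0001, which is an inference. Transcripts entered a fit when the number of libraries at 1 RPKM or more was not below the size of its smallest group. They were tested on log2(RPKM + 1), with a pseudocount of 1, using limma 3.58.1 in R 4.3.3 with a mean-variance trend, Benjamini-Hochberg adjustment over all transcripts and a threshold of 0.1. The count model of the study was not used, since the values are not counts. Each comparison was fitted on its own groups, and the interaction on all 4. Replicates were separate animals.

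The members and lists were chosen with earlier results of these data known. Named genes were the members by lead transcript, list genes called in a comparison, and the 3 genes most like MtnA, Fer1HCH and Tsf1. MTF-1 and Tsf2 were named under AMPH, where neither was called, after their values were seen. Markers were named to check the tissue. Coordinates are those of the deposited table. Names and exon lengths came from a later annotation (BDGP6), whose coordinates were not used. No sequences are shown. Depth was read from the steps between low values of 718 single-exon transcripts.

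The code was tested on simulated data with 200 changed transcripts. A log2 change of 1 was recovered in 80% in the DAT mutant comparison and 88% in the WT comparison, and in 67% for the interaction. Of the calls 8.7%, 13.8% and 11.3% were false, in the same order. The changed transcripts were drawn from levels above those of MtnB and MtnD, so that the rates do not cover these genes. A log2 change of 1 is also larger than the changes of the ferritin genes, and far fewer transcripts were changed than were called under AMPH.

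Same-numbered replicates did not deviate together, with correlations from -0.453 to 0.174, and were not paired. Alternatives were all 15 libraries, fits without each library, other filters, pseudocounts, thresholds and scalings, a single transcript for each gene, 1 fit of all groups and the replicate block. The use of 14 libraries, without DAT mutant vehicle replicate 2, and of rounded RPKM was added after the data were seen.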

Additional observations from a re-analysis of the deposited data

Results flagged for a closer look

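Of 21 sets of 4 libraries of one group (each gene, and the ratio of both ferritin chains), 4 held a library far from the rest by Dixon's test, where chance gives about 1 in 20. All 4 were DAT mutant vehicle replicate 2, which is 1 library and not 4 independent cases. The share of all genes flagged in this library was not taken, so that 1 in 20 is no baseline for it. Over 7970 genes the median size of its log2 difference from the rest of its group was 0.85. Of these genes, 1.36% lay further above the group than MtnA, 0.376% than MtnB and 3.96% than MtnD. It had 5022 RPKM of MtnA, 18.3 RPKM of MtnB, 8.14 RPKM of MtnD and a Fer1HCH to Fer2LCH ratio of 1.13. The part in these values of what sets this library apart was not tested.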

How the results depend on the processing

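Under each alternative run, Tsf1 kept its direction and its call in both AMPH responses, and so did Fer1HCH in WT. Over the settings that did not leave out 1 library each, 288 of 311 values kept their direction and their side of the threshold, and over those that did, 198 of 225. The cause was not tested where none is named.

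With all 15 libraries the genes described here that were called under AMPH in the DAT mutant numbered 1 (Tsf1), the transcripts called there 258, those between the strains on vehicle 189 and those of the interaction 8. MtnA under AMPH in the DAT mutant was then at -0.51, and the interaction at -0.54 for MtnB and -0.14 for Fer1HCH, each with the opposite sign to that over 13 libraries and none called. With 14 libraries 1 of these genes (MtnA) was called between the strains on vehicle, where 1960 of 17570 transcripts were. With median centring or quantile normalization 2 were called (MtnA and MtnD), where 1544 and 1571 of 17487 transcripts were. MtnD met the filter there through the DAT mutant heads alone. Rounded RPKM left 2 (Tsf1 and Fer1HCH) called under AMPH in WT, where 3788 of 18276 transcripts were called, and 40 transcripts in the interaction. An adjusted p under 0.05 also left these 2 in WT. It called 2551 transcripts in the DAT mutant, 2458 of 17584 in WT, 793 between the strains on vehicle and 549 on AMPH. With one transcript per gene, where fewer are tested, these counts were 1903, 1776, 736 and 586. The WT call of Fer2LCH was lost there (limma adjusted p = 0.1105). In a fit of all 4 groups 1670 transcripts differed between the strains on AMPH, and MtnA passed in WT (0.57, limma adjusted p = 0.067). A pseudocount of 0.1 moved the fold changes of MtnB and MtnD by over 1.5 times, except that of MtnD under AMPH in the DAT mutant (0.60), and the WT call of MtnB was lost (limma adjusted p = 0.105).

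With the replicate block, which rests on shared numbers only, 1774 transcripts were called in the DAT mutant, 75 between the strains on vehicle and 109 on AMPH, and Fer2LCH in WT was at 0.56 without a call (limma adjusted p = 0.142).

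Without 1 library each, transcripts called ranged from 2145 to 4041 in the DAT mutant (over 1.5 times fewer without DAT mutant AMPH replicate 3 or DAT mutant vehicle replicate 4), from 2108 to 4677 in WT (fewer without WT vehicle replicate 2, 3 or 4), from 570 to 1331 between the strains on vehicle (DAT mutant vehicle replicate 1 or 4, WT vehicle replicate 2 or 3), from 310 to 1084 on AMPH (any DAT mutant AMPH library, or WT AMPH replicate 4) and from 7 to 44 in the interaction (fewer without any DAT mutant vehicle library, DAT mutant AMPH replicate 3 or WT vehicle replicate 3 or 4, more without WT AMPH replicate 1). Of the genes described here, 2 to 5 were called under AMPH in WT, against 4 of 6 over the 13 libraries, MtnB among them. The 5 came without WT AMPH replicate 2, where 2854 of 17508 transcripts were called. They included MtnB and MtnD, which the filter admitted through the AMPH heads. Between the strains on vehicle 0 to 2 were called. The 2 included MtnD and came without WT vehicle replicate 4, where 1277 of 17630 transcripts were called. Values that changed sign were MtnA under AMPH in the DAT mutant (-0.11 to 0.19), MtnA and MtnD between the strains on AMPH (-0.012 to 0.28 and -0.093 to 0.85), and the interaction of Fer1HCH (-0.046 to 0.12) and Fer2LCH (-0.091 to 0.15), and none of them was called.

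In vehicle heads, DAT mutant vehicle replicate 2 apart, MtnB rests on at most about 11.7 reads. In DAT mutant vehicle replicates 1, 3 and 4 it rests on about 3.2, 0 and 4.3 reads.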
